A study of Mus musculus with 9 samples.

Results

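The genes described here are 10 transcripts that are widely used as readouts of ERK signalling: the Sprouty genes Spry1, Spry2 and Spry4, the Sprouty-related genes Spred1 and Spred2, the ETS factor genes Etv1, Etv4 and Etv5, and the immediate-early genes Egr1 and Ier2. They were taken by name from a table of 38940 genes measured by RNA-seq in mouse embryonic stem cells, and all 10 were found in it. The study asked what YAP and TAZ, the co-activators at the end of the Hippo pathway, do in these cells. There were 3 groups of 3 libraries. Yap/Taz double KO cells are described as Yap ∆/∆ Taz ∆/∆, lacking both, Taz KO cells as Yap f/f Taz ∆/∆, with floxed Yap and deleted Taz,, and control cells as floxed for both (Yap f/f Taz f/f). The genotype field of the double KO libraries gives the same genotype as that of Taz KO. Groups were therefore taken from the titles and descriptions. All groups were grown on fibronectin in N2B27 medium with 4 ng/ml Lif, 3 µM of the GSK3 inhibitor CHIR99021 and 0.4 µM of the MEK inhibitor PD0325901. An inhibitor of the kinase directly above ERK was thus present for every library, controls included. How far it lowered ERK activity is not measured in these data. Cre-ERT2 came from a CAG-driven piggyBac transgene and was induced with 500 nM 4-OHT. The labels do not say whether control cells received 4-OHT or how many clones the libraries represent.

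In the ERK pathway, a receptor such as that for FGF activates RAS, which passes the signal through RAF and MEK to ERK. Active ERK phosphorylates ETS family factors and relieves repression by Capicua, which switches on a set of target genes within minutes to hours. Several of these targets act back on the pathway: Sprouty and Spred proteins restrain RAS and RAF activation. In embryonic stem cells FGF4 made by the cells themselves drives ERK and primes them for differentiation, and MEK inhibition holds them in the naive state.

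Expression was read as FPKM, a unit in which levels of different genes can be set side by side. It gives fragments per kilobase, scaled here between libraries by a median-of-ratios size factor rather than by total reads. Recovered depth was 19.1 to 24.0 M reads per library. Differences were tested with limma on log2(FPKM + 0.5) over 11674 genes, those whose FPKM averaged 1 or more. Fold changes are on that scale, which understates the change of low genes, and the threshold was an adjusted p under 0.05. Of the 10 genes 9 were tested, and Etv1 lay below the minimum. Libraries that share a replicate number deviated together, so a second limma fit took that number as a block, and its adjusted p is given where the call changed. Values after ± are SDs over n = 3 libraries.

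The targeted gene Yap1, on chromosome 9 (7931999 to 8004596, build GRCm38 as for all positions here), had 4.25 ± 0.334 FPKM in double KO, 18.3 ± 0.346 in Taz KO and 18.4 ± 0.573 in control, and fell in double KO against control by 2.0 on the log2 scale (limma, adjusted p = 3.75e-06). Wwtr1, which encodes TAZ, was at 13.9 ± 0.772 FPKM in double KO, 10.8 ± 1.58 in Taz KO and 12.1 ± 0.847 in control. Its log2 fold change against control was 0.20 in double KO (adjusted p = 0.22) and -0.16 in Taz KO (adjusted p = 0.684), and between double KO and Taz KO it was 0.35 (adjusted p = 0.0657, with the block 0.0191). A value summed over the gene does not check the loss of an exon. Embryonic stem cell markers summed to 1303 to 1393 FPKM in double KO, 1474 to 1543 in Taz KO and 1507 to 1562 in control. Of these 8 genes 1 rose and 3 fell in double KO against control, where 12.4% of all tested genes rose and 12.9% fell. The rise was Zfp42 on chromosome 8 (log2 fold change 0.70, limma, adjusted p = 0.00866). The falls were Klf4 (-0.72), Sox2 (-0.33) and Nanog (-0.31). The fibroblast genes Postn, Lum and Dcn were at 0 in every library, and the other fibroblast markers, mostly Thy1, brought that list to 3.17 to 10.9 FPKM in double KO, 1.77 to 5.89 in Taz KO and 2.15 to 4.12 in control. Primitive endoderm markers summed to 2.01 to 3.72 FPKM in double KO, 1.67 to 3.29 in Taz KO and 2.18 to 3.05 in control. Of the primed epiblast markers 5 of 6 names were in the table, and the other, Oct6, is a second name of Pou3f1, which was counted. These markers summed to 20.4 to 30.7 FPKM in double KO, 27.4 to 37.7 in Taz KO and 28.6 to 37.4 in control. These also went both ways. The means of Dnmt3b (13.7 and 21.1 FPKM), Otx2 (4.51 and 6.95) and Pou3f1 (0.484 and 1.33) were lower in double KO than in control. Those of T (7.37 and 4.52) and Fgf5 (0.377 and 0.0481) were higher. The part of these markers in the results below was not tested. In bulk RNA, fewer cells of a type and less RNA per cell cannot be told apart.

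Whole chromosomes also differed between the groups. The median log2 fold change of the tested genes on chromosome 8 was 0.30 in double KO and 0.35 in Taz KO against control, on chromosome 6 it was 0.19 and 0.21, on chromosome 14 it was 0.11 and 0.10, and for 5 genes on chromosome Y it was -0.74 and -0.71, while the median over all genes was -0.02 and 0.01. Ier2 lies on chromosome 8 and Spry2 on chromosome 14. Their values are therefore also given relative to the chromosome.

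Promoter sequences are shown first, from RefSeq (GRCm38.p6), for the 3 of 9 tested members whose libraries did not overlap between double KO and control. The libraries of 45.6% of all tested genes did not overlap in that comparison, so this trait is not particular to these members. Each window is 300 bases long, runs 5′ to 3′ on the gene's strand and ends 50 bases past the start that RefSeq gives. For Spred1 that start lies upstream of the GENCODE start given below, so its window ends before the GENCODE gene begins. Capitals mark the one match to the letters searched that was found in Spry1 and in Spry2.
Spry1, chr3:37639697-37639996, plus strand: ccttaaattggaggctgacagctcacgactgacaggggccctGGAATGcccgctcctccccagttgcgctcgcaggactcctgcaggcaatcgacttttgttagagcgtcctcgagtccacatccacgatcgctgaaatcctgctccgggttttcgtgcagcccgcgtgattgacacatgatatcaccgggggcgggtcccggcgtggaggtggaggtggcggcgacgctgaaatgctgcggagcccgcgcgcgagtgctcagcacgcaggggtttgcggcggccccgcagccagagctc
Spry2, chr14:105896770-105897069, minus strand: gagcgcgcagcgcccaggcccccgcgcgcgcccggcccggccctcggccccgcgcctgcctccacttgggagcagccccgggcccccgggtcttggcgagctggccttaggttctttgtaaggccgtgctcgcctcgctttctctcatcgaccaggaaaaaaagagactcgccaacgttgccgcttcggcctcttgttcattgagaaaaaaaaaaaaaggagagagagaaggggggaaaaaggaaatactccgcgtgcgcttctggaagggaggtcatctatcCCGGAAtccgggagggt
Spred1, chr2:117120821-117121120, plus strand: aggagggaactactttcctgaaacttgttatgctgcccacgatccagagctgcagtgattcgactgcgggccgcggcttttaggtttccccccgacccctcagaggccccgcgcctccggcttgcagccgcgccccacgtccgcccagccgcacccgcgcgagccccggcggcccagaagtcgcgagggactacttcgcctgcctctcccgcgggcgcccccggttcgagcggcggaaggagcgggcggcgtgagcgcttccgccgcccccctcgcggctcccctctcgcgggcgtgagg
The capitals in Spry1 are the TEAD motif CATTCC read on the opposite strand, at -208 to -203 from the start, and those in Spry2 are the ETS core CCGGAA at 33 to 38 past it. The 5 motifs searched on both strands were these, the Capicua octamers TGAATGAA and TGAATGGA, the AP-1 site TGANTCA and the CArG box bound by SRF. Spred1 held none of these letters in its window, and no match overlapped another. Of 32851 promoter windows, 14.7% held the TEAD letters, 14.9% the ETS core, 2.47% a Capicua octamer, 7.81% the AP-1 letters and 1.63% a CArG box. A match is a description of the letters and not of binding. Among the other members, windows of Spred2, Etv1 and Etv5 were also searched, and 1 of the 2 windows of Etv1 held the TEAD letters, at -78 to -73.

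The 10 genes covered a wide range of expression. In double KO cells Ier2 (88.8 FPKM), Etv5 (69.3) and Spry2 (64.7) stood highest and their neighbours in that order overlapped, followed by Spred2 (8.2), Spry1 (7.03), Spred1 (4.83), Spry4 (2.38), Etv4 (1.75), Egr1 (1.1) and Etv1 (0.739). In control cells the order by mean FPKM was Etv5 (72.5), Ier2 (60.1), Spry2 (50.9), Spred2 (8.92), Spred1 (7.17), Spry1 (5.59), Egr1 (2.05), Etv4 (1.28), Spry4 (0.813) and Etv1 (0.665). The libraries of Etv5 and Ier2 overlapped in control, as did those of Ier2 and Spry2, of Egr1 and Etv4, of Etv4 and Spry4, and of Spry4 and Etv1. In every group the 3 highest genes were separated from the other 7 by a gap with no overlap. The 7 lower genes were at or below 9.71 FPKM in every library.

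**Figure D1:**
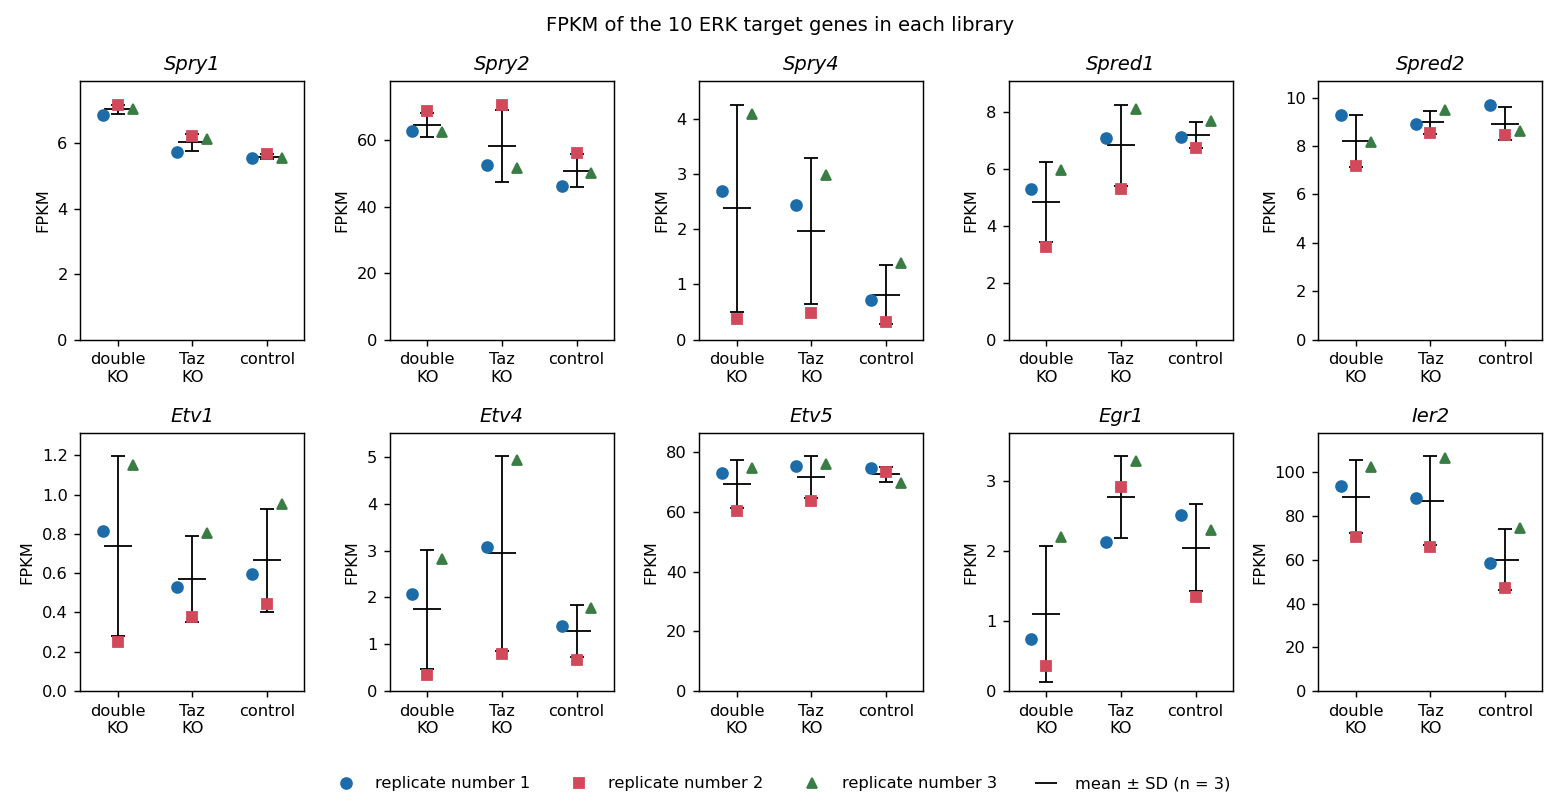
FPKM of each of the 10 genes in each library, with double KO left, Taz KO in the middle and control right; symbols mark the replicate number, and bars are the mean ± SD of 3 libraries. Spry1 is tight within groups, whereas the library numbered 2 is the lowest of each group for Spry4 and Etv4, at 0.364, 0.483 and 0.325 FPKM for Spry4.

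Among the 9 tested members, 1 gene rose and 0 fell in double KO against control, and 4 were under an unadjusted p of 0.05. Over all tested genes 25.3% passed in this comparison, 12.4% as rises and 12.9% as falls, and 39.5% were under an unadjusted p of 0.05. With the block 4 members passed as rises and 2 as falls, where 52.4% of all genes passed, 24.2% as rises and 28.1% as falls. For Taz KO against control 0 members passed (limma), 1 was under an unadjusted p of 0.05, as 12.8% of all genes were, and limma-voom on the recovered reads also gave 0. The share of all genes that passed there was 1.28%, with 0.72% as rises and 0.565% as falls. The block gave 1 rise among the members, where 11.8% of all genes passed, 7.78% as rises and 4.05% as falls. Between double KO and Taz KO 0 members passed (limma), 2 were under an unadjusted p of 0.05 and voom gave 0, where 13.9% of all genes passed (6.42% as rises and 7.45% as falls) and 30.4% were under an unadjusted p of 0.05. The block gave 1 rise and 2 falls there, where 42.4% of all genes passed, 16.8% as rises and 25.6% as falls. The double KO and Taz KO comparisons share the control libraries.

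The Sprouty genes are given first. Spry1, an inducible inhibitor of receptor tyrosine kinase signalling (chromosome 3, 37639947 to 37644598), had 6.87, 7.17 and 7.03 FPKM in double KO libraries 1, 2 and 3, 5.72, 6.21 and 6.12 in Taz KO, and 5.54, 5.67 and 5.56 in control. The 3 groups did not overlap anywhere, with double KO above Taz KO and Taz KO above control. It rose in double KO against control by a log2 fold change of 0.31 (SE 0.06, 95% interval 0.16 to 0.45, limma, adjusted p = 0.0105), and it remained past the threshold in all 9 fits that left out 1 library, with adjusted p-values up to 0.0475. Groups that do not overlap were found for 45.6% of all tested genes between double KO and control, 30.6% between double KO and Taz KO and 18.7% between Taz KO and control. Against Taz KO the Spry1 log2 fold change was 0.21, with an adjusted p of 0.0657 and, with the block, of 0.0161 (limma). Between Taz KO and control it was 0.10 (interval -0.05 to 0.24, adjusted p = 0.661). The rise in double KO was small and even: within replicate numbers 1, 2 and 3 the double KO to control ratios of FPKM were 1.24, 1.27 and 1.26. Its window above carries the TEAD letters, which 14.7% of all windows also hold.

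Spry2, the most abundant Sprouty gene in these cells (chromosome 14, 105891947 to 105896819), had 62.8, 69.0 and 62.4 FPKM in double KO, 52.5, 70.8 and 51.7 in Taz KO, and 46.4, 56.1 and 50.1 in control. Double KO lay above control in all libraries, while Taz KO spanned both. The log2 fold change of double KO against control was 0.35 (SE 0.13, interval 0.05 to 0.64), with an adjusted p of 0.08 and, with the block, of 0.00404 (limma). The median of the 385 other tested genes on chromosome 14 was 0.11, so Spry2 stood 0.24 above its chromosome. In Taz KO the log2 fold change was 0.19 (adjusted p = 0.686), 0.08 above the chromosome. The ratios of double KO to control within numbers 1, 2 and 3 were 1.35, 1.23 and 1.25. The library of Taz KO numbered 2 carried much of the spread: without it the adjusted p of double KO against control was 0.0182 (limma, range 0.0182 to 0.236 over the 9 fits that left out 1 library).

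Spry4, a feedback inhibitor that responds steeply to ERK activity, lies on chromosome 18. It had 2.7, 0.364 and 4.09 FPKM in double KO libraries 1, 2 and 3, 2.44, 0.483 and 2.99 in Taz KO, and 0.722, 0.325 and 1.39 in control. The libraries numbered 2 were lowest in each group, and in those numbered 1 and 3 both knockouts were above control. The log2 fold change of double KO against control was 0.91 with an interval of -0.62 to 2.45 and an adjusted p of 0.35, or 0.0153 with the block (limma). It was 1.33 without the 3 libraries numbered 2 (adjusted p = 0.00931) and 1.52 with voom and the block (adjusted p = 0.00017), both chosen after seeing the data. With no filter on low values and the block, also chosen after seeing the data, Spry4 did not pass. Within numbers 1 and 3 the double KO to control ratios were 3.73 (95% counting interval 2.9 to 4.86) and 2.94 (2.39 to 3.63), whereas within number 2 the ratio was 1.12 (0.69 to 1.84), from 40 and 33 reads. Taz KO to control ratios were 3.37, 1.49 and 2.15, and the log2 fold change was 0.80 (adjusted p = 0.786, with the block 0.0761), or 1.29 with voom and the block (adjusted p = 0.0026). Between double KO and Taz KO it was 0.11 (interval -1.42 to 1.65, adjusted p = 0.932), and without Taz KO library 2 it was -0.46 (adjusted p = 0.635). At 33 to 368 reads per library Spry4 is one of the least precise members. Its mean was 0.813 FPKM in control, 2.38 in double KO and 1.97 in Taz KO, so it reached the minimum of 1 only through the knockouts.

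The Spred genes encode membrane proteins that bring neurofibromin to RAS. Spred1 (chromosome 2, 117121374 to 117182279) had 5.3, 3.24 and 5.95 FPKM in double KO, 7.09, 5.27 and 8.08 in Taz KO, and 7.12, 6.74 and 7.66 in control. Double KO was below control in all libraries, and Taz KO overlapped both. The log2 fold change of double KO against control was -0.56 (SE 0.21, interval -1.04 to -0.09), with an adjusted p of 0.0805 and, with the block, of 0.00429 (limma). Against Taz KO it was -0.48, with an adjusted p of 0.165 and, with the block, of 0.0119. Within numbers 1, 2 and 3 the ratios of double KO to control were 0.744, 0.481 and 0.777. Spred1 was thus the one member of the Sprouty and Spred genes with a lower value in double KO in every number and a p past the threshold in the blocked fit.

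Spred2 (chromosome 11, 19924375 to 20024026) had 9.27, 7.16 and 8.17 FPKM in double KO, 8.91, 8.53 and 9.48 in Taz KO, and 9.71, 8.46 and 8.6 in control. All 3 groups overlapped. Its log2 fold change was -0.12 (interval -0.35 to 0.11, adjusted p = 0.416) in double KO and 0.01 (interval -0.22 to 0.24, adjusted p = 0.992) in Taz KO, so a change of more than about 0.35 in either direction lies outside both intervals.

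**Figure D2:**
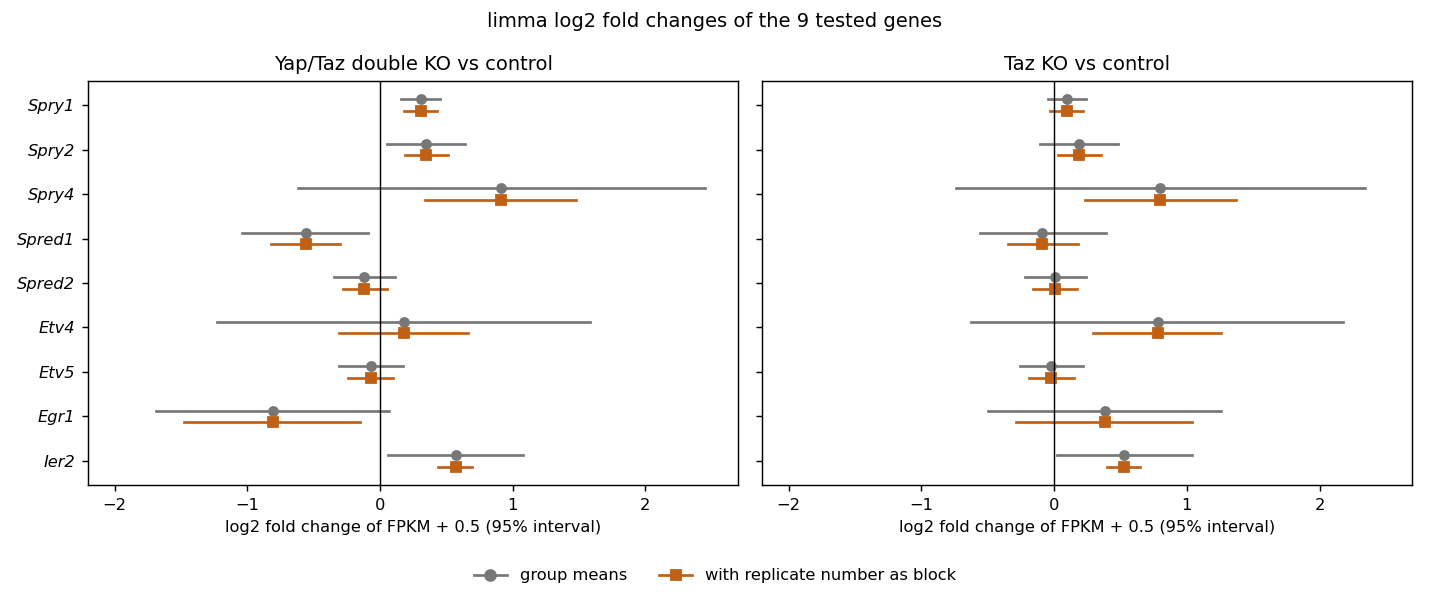
Log2 fold changes of FPKM + 0.5 of the 9 tested genes, double KO against control left and Taz KO against control right, with 95% intervals from limma on group means (grey circles) and with the replicate number as a block (orange squares). The intervals of Spry4 (-0.62 to 2.45) and Etv4 (-1.23 to 1.58) in double KO are the widest on group means and are narrower with the block.

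The ETV genes encode the PEA3 group of ETS activators. Etv5, which is highly expressed in naive embryonic stem cells (chromosome 16, 22381309 to 22439719), had 73.0, 60.2 and 74.6 FPKM in double KO, 75.4, 63.5 and 76.0 in Taz KO, and 74.6, 73.2 and 69.7 in control. The groups overlapped, and the log2 fold change was -0.07 in double KO (interval -0.31 to 0.17, adjusted p = 0.651) and -0.02 in Taz KO (interval -0.26 to 0.22, adjusted p = 0.983). These intervals are among the narrowest of the members. The sign of the double KO value turned to 0.11 with quantile normalization, which did not pass either (adjusted p = 0.265).

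Etv4 (chromosome 11, 101769742 to 101785371) had 2.07, 0.35 and 2.82 FPKM in double KO, 3.07, 0.798 and 4.94 in Taz KO, and 1.39, 0.669 and 1.78 in control, from 26 to 282 reads. Again the libraries numbered 2 were lowest in each group, and within every number Taz KO stood above control. The log2 fold change in Taz KO against control was 0.78 (interval -0.63 to 2.18, adjusted p = 0.763, with the block 0.0527, limma), and in double KO it was 0.18 (interval -1.23 to 1.58, adjusted p = 0.858). Within numbers 1, 2 and 3 the Taz KO to control ratios were 2.21, 1.19 and 2.78, and the double KO to control ratios were 1.48, 0.523 and 1.59. Double KO stood below Taz KO in all 3 numbers, at ratios of 0.673, 0.438 and 0.571, with a log2 fold change of -0.60 (adjusted p = 0.552, with the block 0.0521). With voom and the block on the recovered reads, a fit chosen after seeing the data, Etv4 passed in Taz KO against control (log2 fold change 1.17, adjusted p = 0.00312) and in double KO against Taz KO (-0.77, adjusted p = 0.00866).

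Etv1 (chromosome 12, 38779380 to 38870484) was the lowest member and was not tested. It had 0.817, 0.248 and 1.15 FPKM in double KO, 0.529, 0.376 and 0.804 in Taz KO, and 0.598, 0.444 and 0.953 in control. The groups overlapped, and the library numbered 2 was lowest in each.

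Egr1 and Ier2 are immediate-early genes, which are transcribed without new protein synthesis. Egr1, a zinc-finger factor and a classical ERK target through SRF and ELK1, lies on chromosome 18. It had 0.746, 0.354 and 2.21 FPKM in double KO, 2.14, 2.92 and 3.29 in Taz KO, and 2.52, 1.35 and 2.3 in control, from 38 to 301 reads. Double KO libraries 1 and 2 were below all others, and double KO library 3 lay within the range of control. The log2 fold change of double KO was -0.81 against control (SE 0.39, interval -1.69 to 0.07, adjusted p = 0.154, with the block 0.0446) and -1.19 against Taz KO (interval -2.07 to -0.31, adjusted p = 0.0754, with the block 0.0126, limma). Within numbers 1, 2 and 3 the double KO to Taz KO ratios were 0.348, 0.121 and 0.671, and the double KO to control ratios were 0.296, 0.262 and 0.96. Without double KO library 3, the one at the level of control, the group-means fit gave -1.28 against control (adjusted p = 0.0205) and -1.65 against Taz KO (adjusted p = 0.0211). That was the 1 of the 9 fits leaving out 1 library in which Egr1 passed. Over these 9 fits the adjusted p (limma) went up to 0.382 against control and 0.198 against Taz KO. With no filter on low values and the block Egr1 passed in neither comparison. Between Taz KO and control the log2 fold change was 0.38 (interval -0.50 to 1.26, adjusted p = 0.851).

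Ier2, a small nuclear protein gene (chromosome 8, 84661331 to 84662852), had 93.8, 70.3 and 102 FPKM in double KO, 88.3, 65.9 and 107 in Taz KO, and 58.7, 46.9 and 74.7 in control. Both knockouts overlapped control only through their libraries numbered 2. The log2 fold change against control was 0.57 in double KO (interval 0.06 to 1.08, adjusted p = 0.0954, with the block 0.000144) and 0.53 in Taz KO (interval 0.02 to 1.04, adjusted p = 0.368, with the block 0.00198, limma). It was the one member past the threshold in Taz KO with the block. Within numbers 1, 2 and 3 the ratios to control were 1.6, 1.5 and 1.37 in double KO and 1.5, 1.4 and 1.43 in Taz KO. The median log2 fold change of the 635 other tested genes on chromosome 8 was 0.30 in double KO and 0.35 in Taz KO, so Ier2 stood 0.27 and 0.18 above its chromosome. The part of the chromosome shift in the Ier2 values was not tested.

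**Figure D3:**
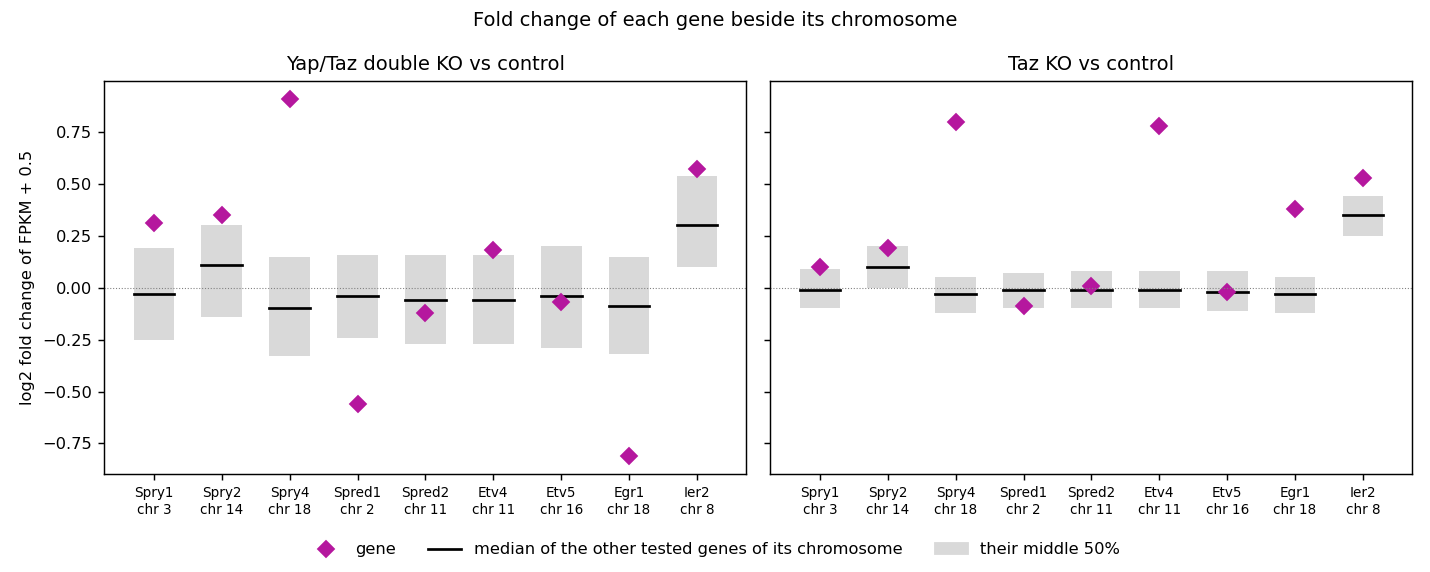
Log2 fold change of each tested gene (diamonds) beside the median (line) and the middle 50% (grey box) of the other tested genes of its chromosome, double KO against control left and Taz KO against control right. Chromosome 8, which carries Ier2, has medians of 0.30 and 0.35, chromosome 14, which carries Spry2, has 0.11 and 0.10, and the others shown lie at or below -0.01.

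The libraries numbered 2 formed a pattern of their own across these genes. Number 2 was the lowest library in all 3 groups for 5 of the 9 tested members (Spry4, Spred1, Spred2, Etv4 and Ier2) and for Etv1, and the highest in all 3 groups for Spry1 and Spry2. Over all tested genes number 2 was lowest in all 3 groups for 31.8% and highest for 19.6%. The mean difference of number 2 from numbers 1 and 3 was -1.58 on the log2 scale for Spry4, the 7th lowest of 11674 genes, and -1.46 for Etv4, the 13th lowest. It was -0.60 for Etv1, -0.55 for Egr1, -0.51 for Ier2 and -0.44 for Spred1, against a median of -0.05 and a 1st percentile of -0.72 over all genes. Spry2 went the other way, at 0.26, and Spry1 was nearly level at 0.04, 0.06 and 0.03 in double KO, Taz KO and control. For Spry4 the difference was -2.15 in double KO, -1.70 in Taz KO and -0.88 in control, and for Etv4 it was -1.78, -1.76 and -0.83. Because the scale follows a size factor and not total reads, summed FPKM can differ between libraries. The summed FPKM of all genes was also lowest in number 2 of each group, at 336733 in double KO, 348884 in Taz KO and 358973 in control, against 359281 to 387333 in the libraries numbered 1 and 3. The 21.6 to 22.1 M recovered reads of the libraries numbered 2 lay within the range of the others. The part of the lower sums in the members' values was not tested. The labels do not say what the number marks, and the comparison of numbers is a description with no test.

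Some genes outside the members were low in the same libraries. Dusp6, a cytoplasmic ERK phosphatase, had 3.08, 1.4 and 4.47 FPKM in double KO, 3.83, 2.07 and 5.23 in Taz KO, and 3.63, 3.37 and 4.6 in control. The mean difference of number 2 was -0.78 for Dusp6, -0.81 for Myc, -1.08 for the cyclin gene Ccnd1 and -1.69 for T, the primitive streak gene brachyury. T came from the primed epiblast markers and not from a list of ERK genes. Dusp6, Myc, Ccnd1 and T were named after their values were seen. Of the other ERK feedback genes 1 of 7 was lowest in number 2 in all groups and 2 of 7 were highest, and of the other immediate-early genes 1 of 17 was lowest and 5 of 17 were highest, so the pattern did not extend to either list as a whole. Deviations from the group means of Spry4 correlated with those of Etv4 at 0.98, of Spred1 at 0.98 and of Spry2 at -0.77 over the 9 libraries, as a description in which all points share the same libraries.

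**Figure D4:**
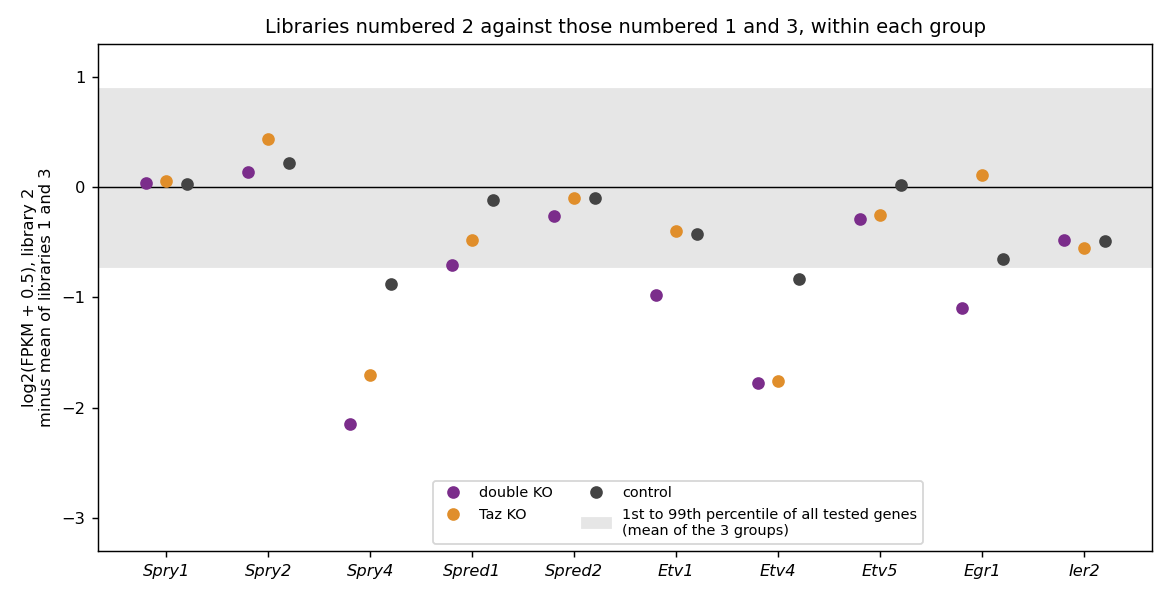
Difference of log2(FPKM + 0.5) in the library numbered 2 from the mean of those numbered 1 and 3, for each gene in double KO, Taz KO and control. The grey band runs from -0.72 to 0.89, the 1st to 99th percentile over all tested genes of the mean of the 3 groups, and Spry4 and Etv4 lie below it in every group.

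**Figure D5:**
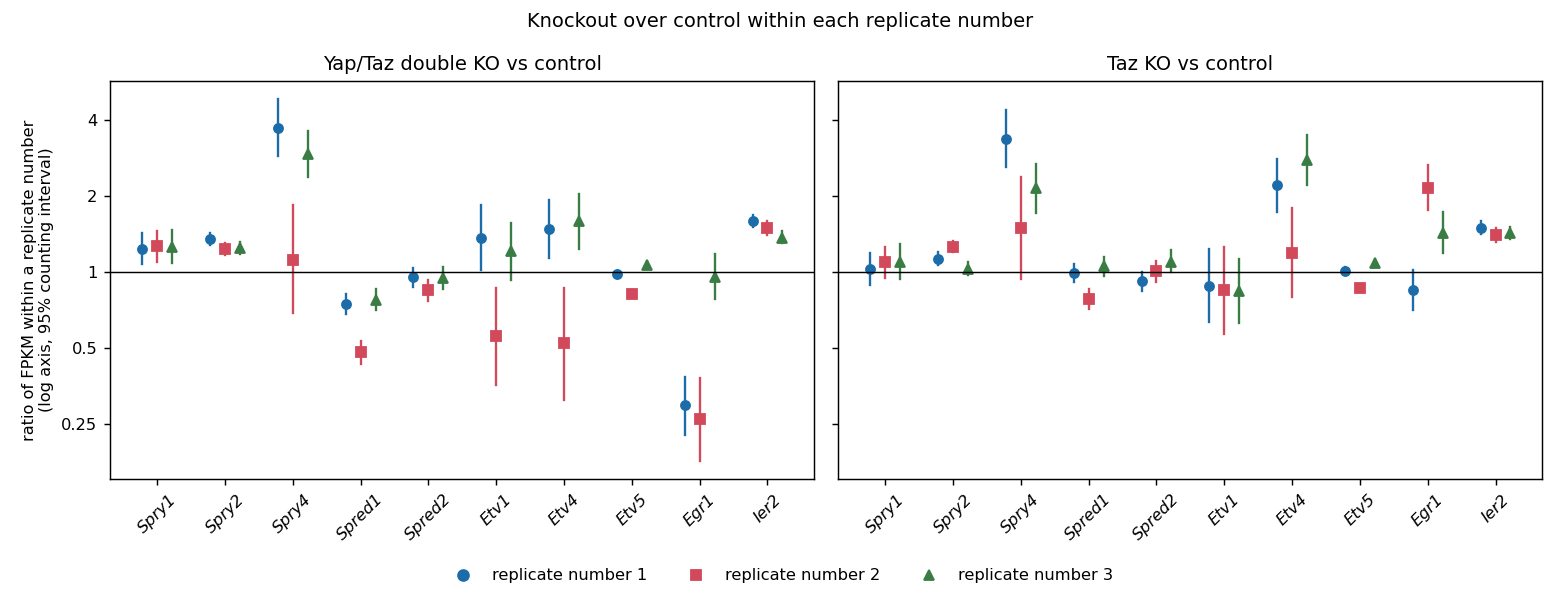
Ratio of FPKM of double KO to control (left) and of Taz KO to control (right) within each replicate number, on a log axis, with 95% counting intervals from the recovered reads. Spry1 (1.24 to 1.27) and Ier2 (1.37 to 1.6) in double KO are even across numbers, whereas the double KO ratio of Etv4 is 0.523 in number 2 and 1.48 and 1.59 in the others.

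Lists of related genes were set beside the members. Their counts stand against the shares of all tested genes that passed as rises and as falls. In double KO against control these were 12.4% and 12.9%, with the block 24.2% and 28.1%. In Taz KO against control they were 0.72% and 0.565%, with the block 7.78% and 4.05%. Between double KO and Taz KO they were 6.42% and 7.45%, with the block 16.8% and 25.6%. Of the other ERK feedback genes, 7 of 9 were tested, and 3 rose and 1 fell in double KO against control. Dusp5, a nuclear ERK phosphatase, rose by a log2 fold change of 1.32 (adjusted p = 0.000364), with 4.13 ± 0.563 FPKM in double KO and 1.35 ± 0.167 in control. Dusp4, another nuclear phosphatase, rose by 1.07 (adjusted p = 0.0344). It lies on chromosome 8, whose median there was 0.30. It was not past the threshold without double KO library 3 (0.70, adjusted p = 0.0629), nor without any 1 of the control libraries or double KO library 1 (adjusted p up to 0.114), nor with no filter on low values (0.0765). Il17rd, a membrane antagonist of FGF signalling also known as Sef, rose by 0.83 (adjusted p = 0.000539), with 22.3 ± 2.21 FPKM in double KO and 12.3 ± 0.509 in control. Dusp9, the X-linked ERK phosphatase of naive cells, fell to 2.71 ± 1.21 FPKM in double KO, against 5.41 ± 0.729 in control (log2 fold change -0.95, adjusted p = 0.0214). Its adjusted p went up to 0.0661 without 1 of the control libraries or double KO library 1. Dusp6 passed in none of the 3 comparisons, with or without the block. The list's median was 0.56, beside -0.02 over all tested genes. In Taz KO against control 0 of the 7 passed (limma), 2 were under an unadjusted p of 0.05 and voom gave 0, and with the block Il17rd alone passed (0.29, adjusted p = 0.0371), which lies on chromosome 14, whose median there was 0.10. Between double KO and Taz KO 2 rose (Dusp5 by 1.08 and Il17rd by 0.54) and 1 fell (Dusp9, -1.08, with an adjusted p of 0.0213 and up to 0.0787 without 1 library). Spry3 was listed at 0 in every library.

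Of the other immediate-early genes 17 of 23 were tested. In double KO against control 8 rose and 1 fell, where 12.4% of all tested genes rose and 12.9% fell, and the list median was 0.58. The largest were the AP-1 genes Jun (log2 fold change 3.08, adjusted p = 0.000246), Jund (2.06, adjusted p = 4.74e-05) and Junb (1.51, adjusted p = 7.93e-05), and Zfp36, an mRNA decay factor (1.11, adjusted p = 0.0151, or 0.0601 without control library 1). Jun was at 21.4 ± 4.6 FPKM in double KO, 1.69 ± 0.77 in Taz KO and 2.11 ± 0.643 in control. Junb and Jund lie on chromosome 8, whose median there was 0.30. The part of the chromosome shift in their values was not tested. Trib1 fell (log2 fold change -0.72, adjusted p = 0.0081), and it was chosen for naming after its value was seen. Egr2, Egr3 and Egr4, the relatives of Egr1, had at most 0.102 FPKM in any library. In Taz KO against control 0 of the 17 passed (limma), 4 were under an unadjusted p of 0.05 and voom gave 0. With the block 2 passed as rises, Junb (0.51) and Jund (0.60), where the chromosome 8 median was 0.35. Atf3 (-0.75) and Btg2 (-0.61) passed as the 2 falls. Between double KO and Taz KO 8 rose and 1 fell, where 6.42% of all tested genes rose and 7.45% fell. Jun (3.36), Jund (1.46), Btg2 (1.19) and Junb (1.00) were the largest.

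A published MAPK activity score joins Spry2, Spry4, Etv4 and Etv5 with 6 other genes, of which 5 were tested here. Over all tested genes 12.4% rose and 12.9% fell in double KO against control, and 24.2% and 28.1% with the block. Of the 5 other genes tested, 2 rose there, Dusp4 and Epha4 (an ephrin receptor, log2 fold change 1.13, adjusted p = 0.0012), and 0 fell. With the block 2 also passed as falls. One of these was Ccnd1, at 17.9 ± 9.27 FPKM in double KO, 36.5 ± 13.7 in Taz KO and 35.4 ± 8.01 in control (log2 fold change -1.11 against control, adjusted p = 0.107, with the block 0.00151). The other was Epha2 (-0.39, adjusted p = 0.101, with the block 0.0171). Both were named after their values were seen. Phlda1 was below the minimum. The list's median was -0.39, with members in both directions. Between double KO and Taz KO 1 rose, Epha4 (0.67, adjusted p = 0.0193, up to 0.0729 without 1 library), and in Taz KO against control 0 passed, 3 were under an unadjusted p of 0.05 and voom gave 0. With the block Ccnd1 also passed between double KO and Taz KO (-1.09, adjusted p = 0.00258) and Epha4 between Taz KO and control (0.46, adjusted p = 0.0307).

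Along the route from FGF to ERK 26 of 30 genes were tested. Double KO against control gave 6 rises and 3 falls, beside the background of 25.3%. With the block 10 passed as rises and 6 as falls, where 52.4% of all tested genes passed, 24.2% as rises and 28.1% as falls. Fgf4, the ligand made by these cells, fell to 60.0 ± 6.54 FPKM in double KO, against 94.7 ± 8.88 in Taz KO and 103.5 ± 4.36 in control (log2 fold change -0.79 against control, adjusted p = 0.00133). The scaffold gene Ksr1 rose by 0.96 (adjusted p = 0.00085), the RAS activator gene Sos2 by 0.74 (adjusted p = 0.00155), and the RAS inactivator gene Nf1, which encodes the neurofibromin that Spred proteins bind, by 0.49 (adjusted p = 0.0419). Nf1 was no longer past the threshold with a lower filter on low values (adjusted p = 0.058) or without some libraries (up to 0.139). In Taz KO against control Braf, which encodes a RAF kinase, had a log2 fold change of 0.33 (adjusted p = 0.189, with the block 0.0385), and it lies on chromosome 6, whose median there was 0.21. Between double KO and Taz KO 3 rose (Ksr1 by 0.76, Sos2 by 0.44 and the RAF activator gene Shoc2 by 0.27). In that comparison 2 fell, among them Fgf4 (-0.66, adjusted p = 0.00635), and of all tested genes 6.42% rose and 7.45% fell. Without 1 library the adjusted p of Sos2 there went up to 0.0977 and of Shoc2 to 0.128.

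Among 12 ETS and Capicua regulators of such targets 10 were tested. Against control 3 rose and 2 fell in double KO, where 12.4% of all tested genes rose and 12.9% fell. The rises (limma) were the Capicua partner gene Atxn1l (0.42, adjusted p = 0.0242) and the ETS repressor genes Erf (0.29, adjusted p = 0.0219) and Etv3 (0.29, adjusted p = 0.0444). Each of these 3 lost its call in some of the fits that left out 1 library, with adjusted p-values up to 0.0945, 0.08 and 0.158. Atxn1l lies on chromosome 8, whose median there was 0.30. The ETS factor gene Ets2 fell to 3.56 ± 1 FPKM in double KO, against 7.34 ± 1.16 in control (log2 fold change -0.97, adjusted p = 0.00525), and Gabpa fell too (-0.28, adjusted p = 0.0192, up to 0.0645 without 1 library). Cic itself, which encodes Capicua, was at 21.7 ± 2.77 FPKM in double KO, 19.5 ± 0.28 in Taz KO and 19.2 ± 0.647 in control. In Taz KO against control 0 passed (limma), 1 was under an unadjusted p of 0.05 and voom gave 0, with Elk3 alone past the threshold with the block (-0.40, adjusted p = 0.0115). Set against Taz KO, in double KO 0 rose and 2 fell (Ets2, -0.69, and Gabpa, -0.26), where 6.42% of all tested genes rose and 7.45% fell. With the block 4 passed as rises and the same 2 as falls, where 42.4% of all tested genes passed, 16.8% as rises and 25.6% as falls. Without 1 library the adjusted p of Ets2 there went up to 0.123 and of Gabpa to 0.147.

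The genes whose values over the 9 libraries were most like each member were found by Pearson's r of log2(FPKM + 0.5), as a description. For Spry1 they were Lrrc15 (r = 0.993), Rnf208 (0.991) and Slc23a2 (0.991), and for Spry2 they were Aim1l (0.974), Dpy19l4 (0.971) and Ccser2 (0.97). Spry4 was most like Chmp3 (0.988), Urm1 (0.985) and Kbtbd8 (0.983), Spred1 like Cluh (0.993), Cdk6 (0.992) and Rrn3 (0.99), and Spred2 like Zfp511 (0.944), AK010878 (0.935) and Hdac3 (0.93). For Etv4 they were Smyd5 (0.998), Mpp6 (0.994) and Rbmxl1 (0.991), and for Etv5 Rrbp1 (0.977), Dnajb9 (0.966) and Dpm2 (0.962). Egr1 was most like Gm14230 (0.955), Ldhb (0.918) and Pif1 (0.913), and Ier2 was most like Agpat6 (0.995), Nob1 (0.993) and Rbm34 (0.993). Several of these genes lie on chromosomes that differed between the groups. Nob1, Rbm34 and Rbmxl1 lie on chromosome 8, Chmp3, Kbtbd8, Smyd5, Mpp6 and Ldhb on chromosome 6, and Ccser2 on chromosome 14. The rest lie on other chromosomes or had no position. The part of the chromosome shifts in these likenesses was not tested. No member was among the 3 genes most like another member.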

How the data were processed

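The deposited table, made by the authors, gives an FPKM value for each gene in each library. TopHat2 2.1.1, HTSeq 0.6.1, DESeq2 and build mm10 are named, per the submitters' processing notes, without their roles, and no source used here gives the strand setting or the annotation. Reads of genes on the opposite strand of Spry1 and Spry4 may therefore be shared. Libraries were made from poly(A)-selected RNA with a directional kit, per the labels' protocols.

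Values were whole multiples of 1 read for 24621 of 24621 genes above 0 (tolerance 0.001), which gave the recovered reads. They were used for depth, counting intervals and the limma-voom alternative, and such intervals cover counting error only. The worth of 1 read followed a median-of-ratios size factor. Group means of 9 libraries were fitted with limma 3.58.1 (R 4.3.3) to log2(FPKM + 0.5), with trended moderated variances and 6 residual degrees of freedom. Tests were two-sided and adjusted by Benjamini-Hochberg over the 11674 genes tested. The labels do not say that replicates were separate cultures, so the spread behind the p-values is that between libraries and may be technical.

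Libraries were checked for pairing by replicate number: their deviations from the group means had correlations of 0.192 to 0.711 for the 9 same-numbered pairs and -0.688 to 0.394 for the 18 others. The pairing comes from these values, since the labels do not say what the number marks. The block fit has 4 residual degrees of freedom.

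Positions are from GENCODE M21 (GRCm38), matched by symbol. The scripts were tested on simulated data. The 10 members and the lists were chosen with earlier results of these data known. From each list, at most 4 genes past the threshold with the largest fold change in a comparison were named, with the 3 genes most like each tested member. Other genes were named after their values were seen. Some results of the listed genes are not reported here.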

Additional observations from a re-analysis of the deposited data

How the results depend on the processing

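Of the members' values, 551 of the recomputed results kept their direction and side of the threshold, 39 passed it under an alternative alone and 25 changed sign. Depth limits the low members: Etv4 had as few as 26 reads in a library, Spry4 33, Etv1 35 and Egr1 38.

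With the replicate block the genes past the threshold numbered 6112 in double KO against control, 1381 in Taz KO against control and 4947 in double KO against Taz KO, beside 2948, 150 and 1620, and the members 6, 1 and 3, beside 1, 0 and 0. The block changed no member's call beyond those given above. With voom on recovered reads and the block (chosen after seeing the data, as are the next 2), these were 6270, 1712 and 5169 genes and 6, 3 and 4 members. Without the 3 libraries numbered 2 they were 4889, 423 and 4277 genes, with 5 members in the first and 2 in the last comparison. With no filter and the block they were 6178, 843 and 4424 genes and 4, 1 and 2 members, without Spry4 and Egr1 in the first. Fitting only the 2 groups compared gave 88 genes in Taz KO against control, 635 in double KO against Taz KO and 2 members in double KO against control. Leaving out chromosomes 6, 8, 14 and Y gave 64 genes in Taz KO against control. Quantile normalization and equal total FPKM each gave 2 members in double KO against control, Ier2 being added. Equal total FPKM split the genes there into 1929 rises and 1335 falls, beside 1443 and 1505. Leaving out 1 library gave 1505 to 3568, 11 to 230 and 482 to 2648 genes, and 1 to 2, 0 to 0 and 0 to 1 members.

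Values that changed sign were near 0 or had wide intervals, and none passed with its sign changed. Leaving out 1 library, the double KO against control log2 fold change ranged from -0.21 to 0.77 for Etv4 and from -0.13 to 0.03 for Etv5. The range for Taz KO against control was -0.21 to 0.08 for Spred1, -0.03 to 0.07 for Spred2, -0.07 to 0.06 for Etv5 and -0.02 to 0.02 for Yap1, and for double KO against Taz KO it was -0.46 to 0.83 for Spry4, -0.13 to 0.05 for Etv5 and -0.14 to 0.20 for Ier2. Quantile normalization turned Etv5 to 0.11 in double KO against control and 0.12 against Taz KO, and Spred2 to -0.02 in Taz KO. Equal total FPKM turned Etv5 to 0.00 in double KO against control and 0.03 against Taz KO. Without the libraries numbered 2, Etv5 was at 0.03 in double KO and 0.07 in Taz KO against control and Spred1 at 0.03 in Taz KO. Minus the chromosome's median, Etv5 and Yap1 were at 0.00 in Taz KO. The cause was not tested.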
